A study of Mus musculus with 10 samples.

Results

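In the inguinal fat pad (iWAT) of male mice, 10 epithelial genes were examined, Krt5, Krt7, Krt8, Krt14, Krt15, Krt18, Krt19, Epcam, Cdh1 and Cldn4, out of 51826 genes listed in the files, of which 33120 have an exon length. Krt18 was chosen on its fold change in exon reads between the offspring of fathers on different diets, and the other 9 because they are keratins or epithelial adhesion genes. The values of the offspring in this comparison are therefore a description, and no test of them is given as support. All mice were C57BL/6 males with no engineered allele named in the labels. The F0 mice were fed a control diet (CD, n = 2) or a low-protein diet (LPD, n = 2) from weaning and were 10 to 12 weeks old. The F1 mice were 5 weeks old and were themselves fed the CD after weaning. They were sons of CD fathers (n = 3) or of LPD fathers (pLPD offspring, n = 3). Each of the 3 came from a different mother, and the mothers were fed the CD. Generation, age and set of libraries coincide, so differences between F0 and F1 cannot be told apart from age or library set.

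Keratins are the intermediate filament proteins of epithelial cells. Each filament is built from pairs of a type I and a type II keratin, and a keratin without a partner is unstable. Krt8 (type II) and Krt18 (type I) form the filament pair of simple, single-layered epithelia, Krt7 and Krt19 accompany them in ducts and glands, and Krt5 (type II), Krt14 and Krt15 (type I) belong to the basal layer of stratified epithelia and to myoepithelial cells. Cdh1 (E-cadherin) holds epithelial cells together at adherens junctions, Epcam is an epithelial surface adhesion molecule, and Cldn4 is a claudin of tight junctions. Adipocytes build their filaments mainly from vimentin, and an inguinal fat pad also holds vessels, nerves, a lymph node and the mammary gland rudiment, and lies under the skin.

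RNA-seq gave 1 library per mouse, with 8653850 to 10044546 reads on exons in F0, 7351881 to 8971136 in the sons of CD fathers, against 6351075 to 7087511 in pLPD offspring. A level of 3 reads, below which a gene cannot be told from absent, was 0.299 to 0.472 counts per 1000000 (CPM) in the 10 libraries, and this floor and the intervals below cover counting error only. The tissue label was borne out by adipocyte genes: Fabp4, a fatty acid binding protein, had a mean of 3047 reads per kilobase of exon and 1000000 reads (RPKM) and Adipoq, which encodes adiponectin, 582. On the same scale, the highest group mean of an epithelial gene was 1.41 (Krt19 in the sons of CD fathers). Introns held 36.0% to 37.5% of the reads on protein-coding genes in the sons of CD fathers, 40.7% to 48.4% in pLPD offspring and 36.3% to 37.9% in F0.

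Krt8 and Krt18 are neighbours on chromosome 15 of mm10 and are transcribed away from each other, from starts 23874 bases apart. Krt18 (ENSMUSG00000023043) lies at 102028216-102032026 on the plus strand with 7 exons, and Krt8 (ENSMUSG00000049382) at 101996711-102004342 on the minus strand with 9 exons. Their promoters are shown because both genes moved in the F1 comparison. The windows run from 250 bases before to 50 bases after the RefSeq start in GRCm38.p6, the assembly of mm10, at chrchr15:102027966-102028265 on the plus strand for Krt18 and chrchr15:102004293-102004592 on the minus strand for Krt8. The capitals mark matches to the string of the TATA box.
Krt18: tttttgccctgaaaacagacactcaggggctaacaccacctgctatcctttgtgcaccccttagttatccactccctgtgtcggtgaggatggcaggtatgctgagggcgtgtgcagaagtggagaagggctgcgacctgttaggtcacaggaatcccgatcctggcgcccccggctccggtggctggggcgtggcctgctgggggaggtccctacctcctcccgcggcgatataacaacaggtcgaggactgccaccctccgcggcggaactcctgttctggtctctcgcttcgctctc
Krt8: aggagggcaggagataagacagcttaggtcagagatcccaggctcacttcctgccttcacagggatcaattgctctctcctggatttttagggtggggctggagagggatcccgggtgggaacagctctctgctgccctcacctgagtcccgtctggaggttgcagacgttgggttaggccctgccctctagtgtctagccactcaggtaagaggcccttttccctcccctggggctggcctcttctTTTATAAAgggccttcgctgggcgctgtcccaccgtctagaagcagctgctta
Matches were looked for on both strands of these windows. The strings searched were that of the TATA box, TATAAA, that of the GC box, which reads GGGCGG, that of the CCAAT box, and that bound by the AP-1 factors Fos and Jun, which reads TGANTCA. The Krt8 window held TATAAA on each strand, 2 matches that overlap in the capitals, and 13.6% of 32851 promoter windows held this motif. The 2 matches begin 3 bases and 1 base before the RefSeq start, and whether they act as a TATA box was not tested. The Krt18 window held none of the 4 strings, of which the GC box was in 35.7% of all windows, the CCAAT box in 37.4% and the AP-1 string in 7.81%. Promoter windows were found for 7 of the 10 genes. Among the others, Krt7 held 4 matches to the GC box, Epcam 1, and Cldn4 2 together with 2 to the AP-1 string, while Krt5 and Krt14 held none of the 4. The windows of Krt7 (101412153-101412452) and Krt14 (100205981-100206280) lie inside the genes as counted here, not at their outer starts.

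Krt18 was counted with 34, 16 and 27 exon reads in the sons of CD fathers and with 0, 0 and 2 in pLPD offspring. In F0 it had 2 and 9 reads in CD-fed males and 4 and 2 in LPD-fed males. The sons of CD fathers were thus above every other mouse, and no pLPD offspring reached the floor of 3 reads. The mean level was 3.35 ± 1.39 CPM (SD, n = 3) in the sons of CD fathers, 0.104 ± 0.180 (SD, n = 3) in pLPD offspring, 0.561 ± 0.477 (SD, n = 2) in CD-fed and 0.327 ± 0.132 (SD, n = 2) in LPD-fed F0 males. Summed over the mice, 77 reads stood against 2, a CPM 33.3-fold higher in the sons of CD fathers (95% counting interval 8.91 to 279.9). The fitted log2 fold change in pLPD offspring was −4.84 (SE 0.80), a value that rests partly on how 2 reads are treated.

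Krt8, the filament partner of Krt18, had 17, 30 and 24 reads in the sons of CD fathers and 0, 4 and 0 in pLPD offspring. It had 3 and 6 reads in CD-fed and 4 and 2 in LPD-fed F0 males. The groups of F1 did not overlap, as for Krt18, but within the sons of CD fathers the mouse with the most Krt18 reads had the fewest Krt8 reads. The mean CPM was 2.99 ± 0.621 (SD, n = 3) against 0.181 ± 0.313 (SD, n = 3), and pooled over the mice 15.4-fold higher with a CD father (95% counting interval 5.74 to 57.9). Of the 10 genes, Krt8 had the largest share of reads that also match elsewhere in the genome, as 63.3% of its 90 reads were unique, so part of its count may belong to near-identical copies. The uniquely matching reads gave the same order, with 42 of 71 reads in the sons of CD fathers and 3 of 4 in pLPD offspring.

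Krt19, a type I keratin of ducts and glands, was the most counted of the 10 genes, from 11 exons at chr11:100140810-100148665 on the minus strand. It had 34, 45 and 48 reads in the sons of CD fathers and 6, 3 and 1 in pLPD offspring. The lowest mouse with a CD father was well above the highest pLPD mouse. The mean was 5.41 ± 0.948 CPM (SD, n = 3) against 0.493 ± 0.388 (SD, n = 3), pooled 11.0-fold higher with a CD father (95% counting interval 5.78 to 23.5). Krt7, a type II keratin of the same epithelia at chr15:101411043-101430313 on the plus strand, had 10, 10 and 11 reads against 4, 2 and 4, with means of 1.33 ± 0.161 and 0.502 ± 0.200 CPM (SD, n = 3 each). Its groups did not overlap either, but the pooled fold of 2.68 (95% counting interval 1.28 to 6.13) was smaller than those of Krt8, Krt18 and Krt19, and its interval overlapped only those of Krt8 and Krt19 among them. Summed over these 4 simple keratins, the sons of CD fathers had 12.8, 11.7 and 14.8 CPM and pLPD offspring 1.53, 1.22 and 1.09.

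The basal keratins were close to or under the floor. Krt5 lies at chr15:101707070-101712891, Krt14 at chr11:100203162-100207548 and Krt15 at chr11:100131758-100135928, all on the minus strand. Krt14 had 2, 7 and 7 reads in the sons of CD fathers and 0, 1 and 0 in pLPD offspring. Krt5, with which Krt14 pairs, had 0, 4 and 7 reads against none in pLPD offspring, and Krt15 had 1, 5 and 1 against none. The same mouse with a CD father was lowest for Krt5 and Krt14, and its 3 basal reads stood against 16 and 15 in the other mice with a CD father. Pooled over mice, the CPM with a CD father was 13.8-fold higher for Krt14 (16 reads against 1, 95% counting interval 2.15 to 580.4), at least 3.17-fold higher for Krt5 (11 against 0) and at least 2.02-fold higher for Krt15 (7 against 0), both bounds with 0 set to the floor of 3 reads over the group.

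The adhesion genes had pooled folds near that of Krt7 or lower, and differences between genes were not tested. Epcam lies at chr17:87635979-87651106 and Cdh1 at chr8:106603351-106670246, both on the plus strand, and Cldn4, a gene of 1 exon, at chr5:134945119-134946934 on the minus strand. Epcam had 19, 17 and 30 reads in the sons of CD fathers and 1, 19 and 5 in pLPD offspring, so that the second pLPD mouse lay among those with a CD father. The pooled fold of Epcam was 2.28 (95% counting interval 1.42 to 3.78), and its fitted log2 fold change of −1.21 became −2.57 without the second pLPD mouse, still not past the threshold. Cldn4 had 3, 5 and 6 reads against 0, 5 and 1, again with the second pLPD mouse highest of its group, and a pooled fold of 2.02 (0.729 to 6.41). The second pLPD mouse also carried the 4 Krt8 reads and the 1 Krt14 read of its group, but neither of the 2 Krt18 reads. Cdh1 was the most even of the 10 genes, with 15, 17 and 16 reads against 9, 12 and 12. The CPM of Cdh1 was 2.04 ± 0.0936 against 1.62 ± 0.246 (SD, n = 3 each), a pooled fold of 1.26 whose counting interval of 0.791 to 2.02 includes equality.

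**Figure D1:**
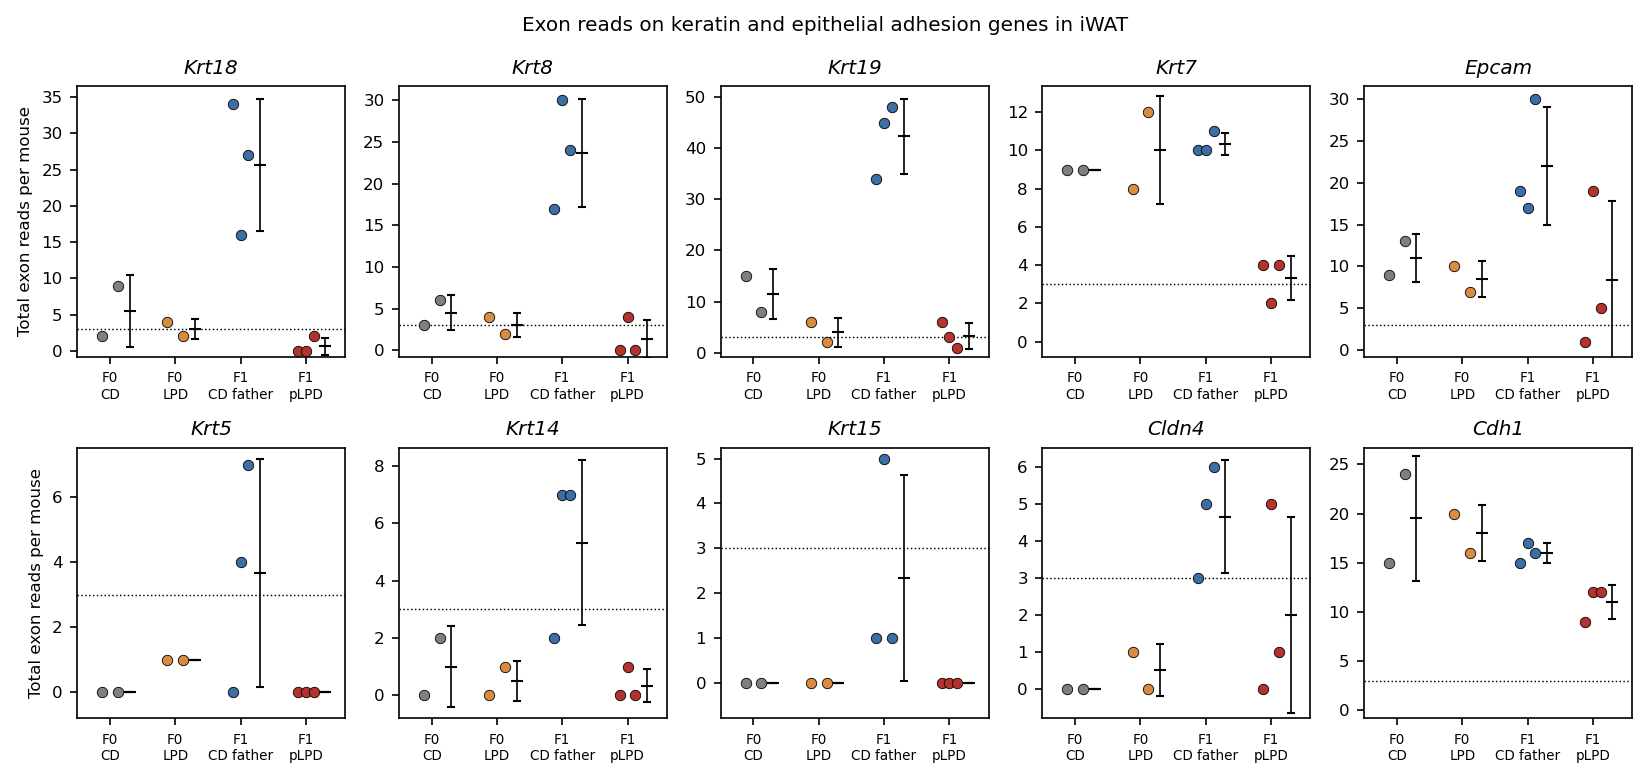
Exon reads per mouse (vertical axis, reads) for each of the 10 genes in the 4 groups. Points are mice, bars the mean and SD of a group, cut at the lower edge where they would go below 0, and the dotted line the floor of 3 reads. The simple keratins Krt8, Krt18 and Krt19 are high in the 3 sons of CD fathers and near the floor in pLPD offspring, while Epcam of 1 pLPD mouse (19 reads) lies among the mice with a CD father and Cdh1 has 9 to 24 reads in every mouse.

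In F1, 5 of the 10 genes passed the filter on low counts, and 3 of these, Krt8, Krt18 and Krt19, were past the threshold of 0.05 on the adjusted p-value of edgeR, all lower in pLPD offspring. Of 14049 genes tested, 1.02% were called lower and 1.17% in either direction. The log2 fold changes of the 3 were −3.82 (SE 0.72) for Krt8, −4.84 (SE 0.80) for Krt18 and −3.40 (SE 0.47) for Krt19, and the nearest below the threshold was Epcam with −1.21 (SE 0.63), then Cdh1 with −0.32 (SE 0.37). The median of the 5 was −3.40, beside 0.0074 over all genes tested. Krt8, Krt18 and Krt19 passed the filter only through the sons of CD fathers, in which they are high. Their calls and this median are therefore a description. Without filtering, every pLPD mouse was below every mouse with a CD father in CPM in 7 of the 10 genes. These were Krt7, Krt8, Krt14, Krt15, Krt18, Krt19 and Cdh1, and Krt5, Epcam and Cldn4 overlapped. Such a separation held for 10.9% of the genes tested, but Krt7, Krt14 and Krt15 were not among those tested. Since the F1 comparison chose Krt18, these counts are given without a reading. Leaving out the first mouse with a CD father or the first pLPD mouse left 1 call (Krt19), leaving out the second pLPD mouse 1 (Krt8), and leaving out the second mouse with a CD father or the third pLPD mouse 2 (Krt18 and Krt19). The higher intron share of pLPD offspring goes with these lower values, and its part in them was not tested. With reads on the whole gene, introns included, Krt8 was no longer past the threshold (log2 fold change −3.90, adjusted p = 0.0528, edgeR). In a whole fat pad, fewer epithelial cells and less RNA per epithelial cell cannot be told apart.

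The diet of the F0 males themselves, which the choice of the genes did not use, gave smaller differences. Krt19 had 15 and 8 reads in CD-fed and 6 and 2 in LPD-fed males, with both LPD-fed mice below both CD-fed mice. Its pooled CPM was 2.74-fold higher on CD (95% counting interval 1.18 to 7.09), against 1.75-fold for Krt18 (0.593 to 5.76) and 1.43-fold for Krt8 (0.455 to 4.88). The intervals of Krt18 and Krt8 include equality. Krt7 had 9 and 9 reads on CD and 8 and 12 on LPD (pooled fold of CD over LPD 0.858, interval 0.428 to 1.71). Epcam had 9 and 13 reads against 10 and 7 (1.23-fold, 0.626 to 2.48), and Cdh1 15 and 24 against 20 and 16 (1.03-fold, 0.640 to 1.67). The basal keratins and Cldn4 had at most 2 reads in any F0 mouse and give no fold, among them Krt5 with 1 read in each LPD-fed and none in a CD-fed mouse.

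With 2 mice per diet, only Cdh1 passed the filter in F0, and it was not past the threshold in edgeR (log2 fold change −0.04, SE 0.37, adjusted p = 0.976), while 2.5% of 14581 genes were, 1.18% higher and 1.32% lower on LPD. Cdh1 was not called by DESeq2 either and did not have an unadjusted p below 0.05, which 15.7% of all genes had. In a fit of all 4 groups the F0 log2 fold changes were −1.44 (SE 0.69) for Krt19, −0.77 (SE 0.96) for Krt18 and −0.50 (SE 0.94) for Krt8. These genes passed the filter there only through the F1 mice in which they are high, and their 2 to 15 reads per F0 mouse leave little to test. With no filter, Krt19 had an unadjusted p of 0.0455 in F0 (adjusted p = 0.356, edgeR), and in the fit of all 4 groups 0.0556 (adjusted p = 0.466). An exact two-sided permutation test of 2 mice against 2 cannot go below 0.333. By the measure of overlap, LPD-fed mice were below CD-fed mice in 1 gene (Krt19) and above in 1 (Krt5). Of the genes tested, 23.6% were below and 22.8% above, but neither Krt19 nor Krt5 was among those tested in F0.

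Whether the effect of diet differed between F1 and F0 was tested as an interaction over all 10 libraries, a test that contains the F1 comparison and so is not independent of the choice of Krt18. Of the 6 genes tested, 0 passed the threshold in edgeR or in DESeq2, where edgeR called 1.25% of 15111 genes, and 2 had an unadjusted p below 0.05, as 12.5% of all genes did. These were Krt18, with a difference of the log2 fold changes, F1 minus F0, of −4.11 (SE 1.46, adjusted p = 0.231), and Krt8 with −3.35 (SE 1.30, adjusted p = 0.291). Krt19 differed by −1.97 (SE 0.94), Krt7 by −1.62 (SE 0.75), Epcam by −0.93 (SE 1.003) and Cdh1 by −0.29 (SE 0.53). All 6 values were negative, but every one of these genes shares the same libraries, and none was past the threshold after adjustment. Apart from Cdh1, none of them passed the filter in F0 alone. Krt8, Krt18 and Krt19 entered this fit only through the F1 mice in which they are high. Krt18 had 2 to 9 reads per F0 mouse and Krt8 2 to 6, so the missing call does not show that the diet effects are alike.

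**Figure D2:**
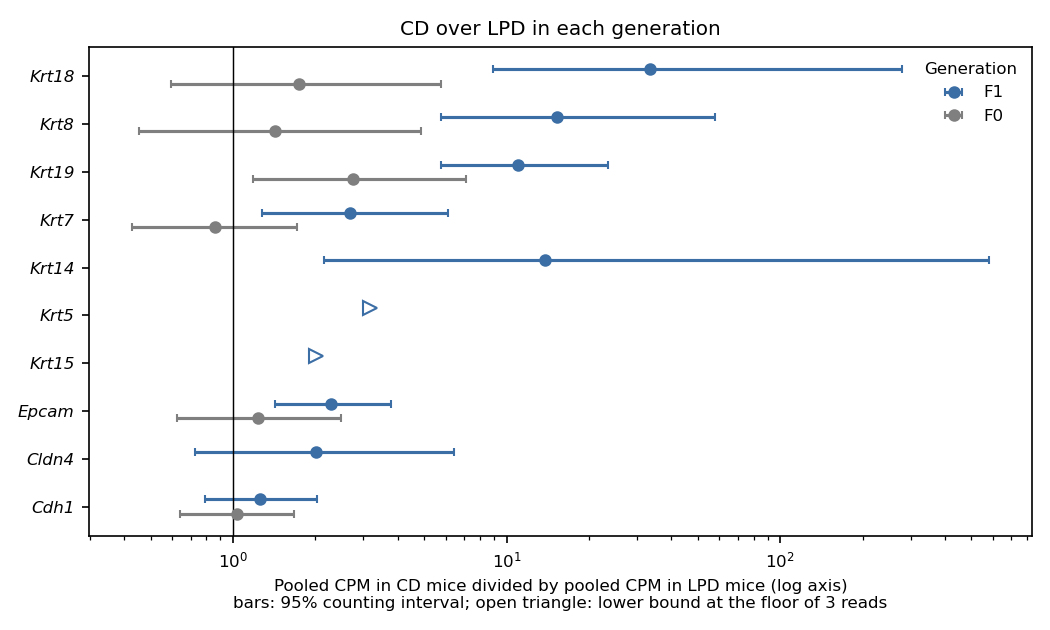
Pooled CPM of CD mice divided by that of LPD mice (horizontal log axis) in F1 and F0 for each gene. Points are ratios of summed reads, bars 95% counting intervals, and open triangles lower bounds for genes with no read in pLPD offspring. The F1 ratios of Krt18 (33.3), Krt8 (15.4), Krt14 (13.8) and Krt19 (11.0) are above 10, those of Krt18 and Krt14 with wide intervals since they rest on 2 reads and 1 read in pLPD offspring, those of Krt7, Epcam, Cldn4 and Cdh1 are 1.26 to 2.68, and no F0 ratio is above 2.74.

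Levels of different genes were compared per length of exon. In the sons of CD fathers the order was Krt19 with 1.41 ± 0.297 RPKM, Krt18 with 1.15 ± 0.458, Krt8 with 0.803 ± 0.186 and Epcam with 0.678 ± 0.272 (mean ± SD, n = 3). Each of these overlapped its neighbour within 1 SD. A step down led to Cdh1 with 0.216 ± 0.0161, Krt14 with 0.187 ± 0.103 and Cldn4 with 0.160 ± 0.0592 RPKM. Krt5 with 0.105 ± 0.107, Krt7 with 0.0908 ± 0.0127 and Krt15 with 0.0772 ± 0.0702 RPKM followed, and all again overlapped their neighbours. Krt7 was counted over 22 exons and 7055 bases, against 1758 bases for Krt14 and 2190 for Krt5. Its RPKM below theirs rests on this length, as it had 31 reads against 16 and 11. In pLPD offspring the order of RPKM began with the adhesion genes, Epcam with 0.261 ± 0.289 and Cdh1 with 0.155 ± 0.0322, followed by Krt19 with 0.112 ± 0.0799, and Krt18 was at 0.0329. In CD-fed F0 males Krt19 (0.351 ± 0.172 RPKM), Epcam (0.298 ± 0.0575), Cdh1 (0.235 ± 0.0619) and Krt18 (0.213 ± 0.183) were within each other's spread. In LPD-fed F0 males Epcam (0.232 ± 0.0364 RPKM) and Cdh1 (0.220 ± 0.0139) led and Krt18 (0.118) and Krt19 (0.117) followed.

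Part of the reads crossed exon junctions, as those of spliced transcripts do. Reads across exon junctions made up 26.0% of the 96 Krt18 reads, 31.1% of those of Krt8, 31.0% of those of Krt19, 35.4% of those of Epcam and 21.2% of those of Cdh1, beside 23.7% to 26.2% over all protein-coding genes with several exons. Intron reads were few on the simple keratins, at 5.88% of the reads on Krt18, 3.23% on Krt8 and 5.08% on Krt19. They were 40.0% of the reads on Cdh1 and 38.8% on Krt7, in the range of all protein-coding genes. Apart from Krt8, between 85.0% (Krt14, 20 reads) and 100% of the exon reads of each gene were unique.

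The genes next to the epithelial genes on the chromosome were not called. Krt15 and Krt19 are also neighbours, 4882 bases apart on chromosome 11. Of 15 other nearest protein-coding neighbours, 6 were tested in F1 and 7 in F0, and 0 passed the threshold in either. Eif4b, a translation initiation factor 41747 bases beyond Krt18, had 1604 to 3096 reads per mouse and a log2 fold change of 0.04 in F1 and −0.14 in F0 (adjusted p = 0.863 and 0.560, edgeR).

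Other junction, desmosome and basement membrane genes of epithelia were taken as a list of 24, of which 14 were tested in F1. None of them passed in edgeR or DESeq2, and 2 had an unadjusted p below 0.05, beside 15.3% of all genes. The median log2 fold change was −0.27, with 12 of 14 below 0. The 2 went opposite ways, Dsp lower and Marveld2 higher in pLPD offspring. Marveld2, named after its values were seen, had 16, 22 and 20 reads against 26, 37 and 31 (log2 fold change 0.91, SE 0.29). Dsp (desmoplakin, which anchors intermediate filaments at desmosomes) had 16, 16 and 11 reads in the sons of CD fathers and 5, 3 and 0 in pLPD offspring (log2 fold change −2.16, SE 0.65, adjusted p = 0.140). In F0, Dsp had 2 and 2 reads on CD and 23 and 12 on LPD, the opposite order (3.11, SE 0.62, adjusted p = 0.0412). It passed the filter there only through the LPD-fed males. The call of Dsp was lost without any 1 of the 4 mice (adjusted p = 0.1197 to 0.240). The F0 test called 5 of the 16 tested, 2 higher and 3 lower on LPD, beside 1.18% higher and 1.32% lower of all genes. The higher were Dsp and Lamb3, a laminin chain (1.58, SE 0.31, and 0.68 with intron reads), and the lower Itgb4, a hemidesmosome integrin (−0.88, SE 0.14), Lama3, another laminin chain (−0.86, SE 0.17), and Ppl, periplakin (−0.62, SE 0.13). These calls fell to 0 with all 4 groups in one fit, or without the first CD-fed or the second LPD-fed mouse, to 1 without the second CD-fed mouse and to 3 without the first LPD-fed mouse, and to 2 (Itgb4 and Lamb3) in DESeq2. Itga6, the integrin partner of Itgb4 and among the most abundant of the list, had log2 fold changes of −0.12 in F1 and 0.27 in F0, neither past the threshold.

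Transcription factors, splicing factors and proteases of epithelia formed a list of 19, of which 7 were tested in each generation and 0 passed in edgeR or DESeq2. In F1, 2 of the 7 had an unadjusted p below 0.05, beside 15.3% of all genes, and the median log2 fold change was −0.17. In F0, 1 of the 7 did, beside 15.7% of all genes, and the median was 0.01. Spint2, a protease inhibitor and the most abundant of them, had a log2 fold change of −0.17 in F1, and Grhl1, a grainyhead transcription factor, −0.58 (adjusted p = 0.718 and 0.304). Foxa1, a forkhead factor of glandular epithelia, was not tested in F1, and it is named here after its values were seen: it had 23, 16 and 6 reads in the sons of CD fathers and 2, 0 and 0 in pLPD offspring. In F0, Foxa1 had 5 reads in 1 CD-fed mouse and none in the other mice, so that it was high in the same group as Krt18.

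Among 47 other keratins, 11 had no read in any mouse and 4 were tested in F1, of which 0 passed in edgeR. Of these 4, 3 had an unadjusted p below 0.05, beside 15.3% of all genes, and 1 passed in DESeq2. The one passing was Krt222, a keratin-like protein named after its values were seen, with 39, 47 and 17 reads against 10, 12 and 7 (log2 fold change −1.59, SE 0.42, adjusted p = 0.0956 in edgeR). Krt80, a keratin of many epithelia and the one with the highest RPKM in the list, had 22, 50 and 40 reads against 18, 20 and 15 (−0.85, SE 0.34, adjusted p = 0.260). In F0, 1 of 5 passed, beside 2.5% of 14581 genes in either direction and 1.18% higher on LPD. This was Krt79, known from the ducts of hair follicles and sebaceous glands, with 17 and 9 reads on CD and 47 and 74 on LPD (2.28, SE 0.42, adjusted p = 0.0312). In F1, Krt79 had 16, 27 and 23 reads against 17, 28 and 23, which makes it a keratin that did not go with Krt18 in either generation. The Krt79 call was lost without the second CD-fed or the second LPD-fed mouse, and without the latter the 1 call was Krt71.

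Marker genes of tissues that hold these keratins were measured in the same mice. The list of 16 epidermis genes summed to 19.8 to 33.4 CPM in the sons of CD fathers, against 18.8 to 28.8 in pLPD offspring, overlapping ranges, mostly from Sbsn and Sfn. Of its defining genes, Krt1 had no read in any mouse, Lor at most 2 and Ivl at most 1. Krt10, the filament partner of Krt1, was however counted in every mouse and was lower in every pLPD mouse, with 17, 10 and 9 reads in the sons of CD fathers and 7, 4 and 4 in pLPD offspring (2.08-fold, 95% counting interval 1.11 to 4.08). The list of 12 mesothelium genes summed to 8.44 to 9.53 CPM against 4.74 to 6.77, and its defining genes Msln, Upk3b and Wt1 had 0 or 1 read per mouse, and Upk1b and Calb2 none. Others of this list were counted and lower in pLPD offspring, as Lrrn4 with 36, 33 and 26 reads against 12, 22 and 17 (1.61-fold, 1.13 to 2.31), Rspo1 with 7, 9 and 9 against 4, 1 and 3 (2.70-fold, 1.18 to 6.93) and, with groups that overlap, Gpm6a with 10, 12 and 6 against 2, 9 and 3. The list of 12 luminal mammary genes summed to 5.08 to 7.28 CPM in the sons of CD fathers, against 0.778 to 3.25 in pLPD offspring, and, in F0, to 3.19 to 4.02 on CD and 2.22 to 3.04 on LPD. These ranges did not overlap in either generation. The mesothelium list did not overlap in F0 either (10.7 to 11.7 on CD, 8.53 to 9.02 on LPD), nor did the list of transcription factors, splicing factors and proteases in F1 (39.4 to 46.3 against 27.2 to 35.0) or F0 (36.3 to 38.8 against 32.1 to 33.8), so that this separation was not particular to the mammary list. In F1 the junction and basement membrane list (252 to 297 against 236 to 248) and the other keratins (16.5 to 24.5 against 10.9 to 12.2) were also apart. In F0 the former overlapped and the latter were higher on LPD. The milk genes Csn1s1, Csn1s2a and Csn2 had no read in any mouse, and 1 gene of the list was tested in F1 and not called. Within it, Cited1, a transcriptional coregulator, had 8, 12 and 10 reads in the sons of CD fathers and 4, 0 and 0 in pLPD offspring, 6.49-fold higher (95% counting interval 2.29 to 25.3). Areg, a growth factor of the duct, had 10, 2 and 7 reads against none, and Aqp5, a water channel of glands, 15, 3 and 3 against none, both named after their values were seen. Other genes of the list overlapped between the F1 groups, as Muc1, a mucin of glandular epithelia and the one with the highest RPKM, had 3, 5 and 4 reads against 7, 5 and 2, and Prom1, a surface protein of luminal cells, 16, 13 and 14 against 6, 17 and 3. The part of these cell types in the keratin values was not tested.

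Marker genes of cell types without keratins were measured as well. The 8 adipocyte genes summed to 11261 to 12448 CPM in the sons of CD fathers, against 11354 to 13640 in pLPD offspring. Of the 8, 0 were past the threshold in edgeR or DESeq2 and the median log2 fold change was 0.18. An unadjusted p below 0.05 was reached by 1 of them, beside 15.3% of all genes. The lymphocyte list summed to 472 to 550 CPM against 510 to 673, with 0 of 10 called by either tool. Of these 10, 5 had an unadjusted p below 0.05, beside the same 15.3%. All 10 log2 fold changes were above 0, with a median of 0.264. Non-keratin intermediate filaments were led by Vim, with a mean of 178 RPKM, and 0 of 8 tested were called in F1 by either tool, with 0 at an unadjusted p below 0.05 and a median of 0.013. In F0, skeletal muscle genes summed to 3264 to 5056 CPM on CD and 1641 to 2223 on LPD, and 4 of 8 were called lower by edgeR and 1 by DESeq2, beside 2.5% of all genes called by edgeR in either direction. In the same mice the simple keratins were at 3.24 and 3.19 CPM on CD and 2.31 and 2.10 on LPD. The part of this muscle difference in the F0 values was not tested.

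**Figure D3:**
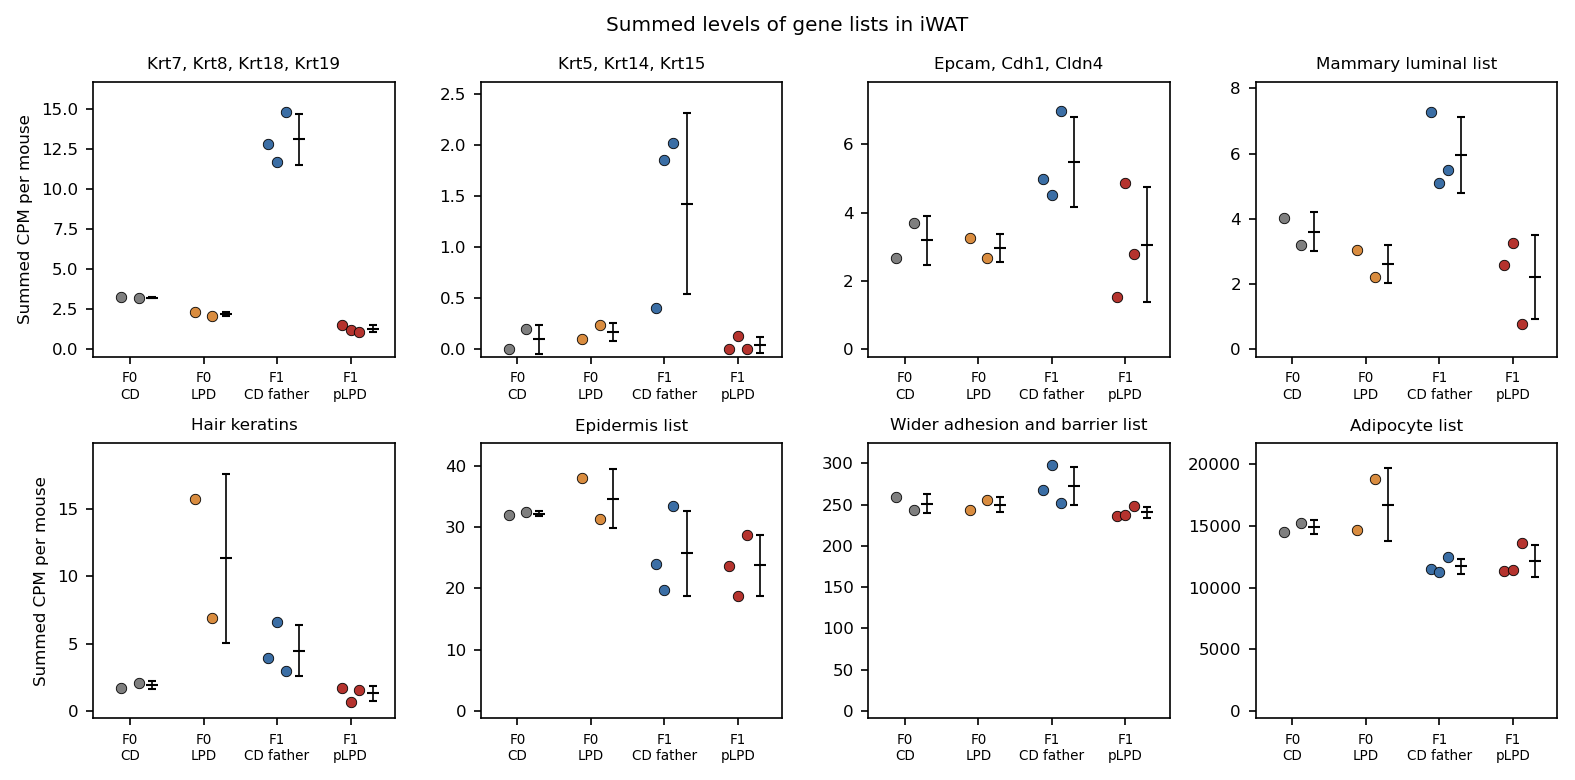
Summed CPM per mouse (vertical axis) of the simple keratins, the basal keratins, the adhesion genes and 5 lists of other genes in the 4 groups. Points are mice, bars mean and SD. The simple keratins and the mammary luminal list are highest in the 3 sons of CD fathers, the hair keratins in the 2 LPD-fed F0 males (6.89 and 15.7 CPM), and the epidermis, adhesion and barrier, and adipocyte lists overlap or lie close between the F1 groups.

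Other genes were ranked by how like their level was to that of Krt18 (Pearson correlation of log2 CPM over libraries, 15906 genes). Over all 10 libraries the 5 most alike were Basp1 (r = 0.93), Tgfbr2 (0.91), Capzb (0.91), Serpina3k (0.91) and Slc38a10 (0.91). The other epithelial genes followed at rank 195 for Krt8 (0.77), 207 for Krt7 (0.76), 215 for Cdh1 (0.76), 347 for Krt19 (0.72) and 730 for Epcam (0.63). Over the 6 F1 libraries alone, Acacb (0.998), Lrp4 (0.998), Vipas39 (0.996) and Basp1 (0.992) were among the closest, with Krt7 at rank 217 and Krt8 at rank 1428. The libraries share the difference between the groups and the Krt18 values near the floor, so these correlations are a description. The most abundant of these genes were far above Krt18, as Tgfbr2 had 1639 to 3104 reads per mouse, and r does not say how large a difference was.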

How the data were processed

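RNA was taken from iWAT, depleted of rRNA, made into directional libraries and sequenced as 2 × 36 base pairs. The authors mapped the reads to mm10 with CLC Genomics Workbench 9.5.1, and the deposited counts are their whole numbers of exon, intron and junction reads per gene, not normalized; the strand setting and annotation version are not given in the sources used here. The deposited RPKM values were scaled by the authors by exon length and library total and serve only to compare genes. The deposited TPM values were not tested.

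Exon read counts were tested with edgeR 4.0.16 in R 4.3.3 (filterByExpr, TMM, quasi-likelihood F test, two-sided, Benjamini-Hochberg over all genes tested, threshold 0.05), each generation alone, and the interaction over all 10 libraries. The SE was computed as the log2 fold change's size over the root of F. Printed CPM values are TMM-normalized over all 10 libraries. Pooled ratios carry exact binomial (Clopper-Pearson) 95% intervals. DESeq2 1.42.0 was an alternative. The script was tested on simulated counts. The genes and lists were chosen with earlier results of these data known. Named beside the 10 genes were, per list, the genes past the threshold (at most 5), the 2 with the highest mean RPKM and the 5 most like Krt18, of which 1 is not reported here; further names, and the hair keratin list, were chosen after their values were seen. Mice with the same replicate number did not deviate together (correlations −0.0203 to 0.0737), so no pairing was used. P-values set a difference against the spread between mice. Which father each F1 mouse had is not given in the sources used here, so spread between sons may not equal spread between fathers.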

Additional observations from a re-analysis of the deposited data

Results flagged for a closer look

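The interaction test of edgeR was looked up for the 10 genes, the genes named by rule and the hair keratins. Of these, 3 were past the threshold, where 1.25% of 15111 genes were. All 3 had been named for their calls in F0, a comparison that the interaction contains. Their number is therefore a description and cannot be set against that share. Dsp was lower in pLPD offspring and higher in LPD-fed F0 males, with a difference of log2 fold changes, F1 minus F0, of −5.27 (SE 1.02, adjusted p = 0.0287), and the groups of each generation did not overlap. Groups were apart in these directions in 10.9% of the genes tested in F1 and 22.8% in F0. Dsp passed the filter in F0 only through the LPD-fed males in which it is high. The F0 call of Dsp was lost without any 1 of the 4 F0 mice. Myh7, a slow skeletal muscle myosin, differed by 7.10 (SE 1.38, adjusted p = 0.0287). Its reads were 157 and 225 on CD and 5 and 2 on LPD in F0. In F1 it had 0, 4 and 0 reads against 7, 0 and 3 and was not tested alone. Myh7 thus passed the filter through the CD-fed F0 males in which it is high, and its value rests on F1 counts near the floor. Retn, the adipocyte hormone resistin, differed by 1.01 (SE 0.22, adjusted p = 0.0454).

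In 2 hair keratins every LPD-fed F0 mouse was above every CD-fed mouse while every pLPD mouse was below every mouse with a CD father, and this difference between generations was not tested. Of all genes tested, 22.8% lay above on LPD in F0 and 10.9% below in pLPD offspring, but neither of the 2 keratins was among those tested. Other hair keratins also lay above on LPD in F0, as Krt33a (7 and 9 reads) and Krt83 (11 and 4), with 0 reads on CD. Krt71, of the inner root sheath of hair, had 44 reads in LPD-fed F0 males (38 and 6) against none on CD, and 2, 1 and 2 reads in the sons of CD fathers against none in pLPD offspring. Krt87, a keratin of the hair shaft, had 15 reads in LPD-fed F0 males (12 and 3) against 1 and 0 on CD, and 5, 5 and 2 reads against none in F1.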

How the results depend on the processing

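In F1, Krt8, Krt18 and Krt19 made 3 calls, and 7 alternatives gave 2 or 3. Uniquely matching reads and reads with introns gave 2 (Krt18 and Krt19). With uniquely matching reads Krt8 did not pass the filter and was not tested, while with intron reads it was tested. The log2 fold change of Krt18 ranged from −5.07 to −4.84 in these alternatives. Without 1 mouse there were 1 to 3 calls, and the log2 fold change ranged from −7.64 to −4.28 for Krt18, −7.46 to −3.30 for Krt8, −4.14 to −3.02 for Krt19 and −2.57 to −0.71 for Epcam, all negative. In F0, 0 of the 10 genes were called in any of 7 alternatives or without any 1 mouse. The F0 log2 fold change of Cdh1 was −0.27 to 0.25 without 1 mouse, turning to 0.25 without the second CD-fed and to 0.04 without the second LPD-fed mouse. In the interaction, testing with no filter on low counts gave 1 call (Krt18), and the other 5 alternatives and leaving out any 1 of 10 mice gave 0. The 5 calls among junction and basement membrane genes in F0 became 2 in DESeq2, 2 with intron reads, 0 with all 4 groups in one fit, and 0 to 3 without 1 mouse; the cause was not tested. The 1 call among other keratins in F0 became 5 with no filter, as low-count keratins of hair then entered (Krt25, Krt33a, Krt71 and Krt83 beside Krt79), and 0 to 1 without 1 mouse. In a fit with a block for the replicate number, the calls were 3 in F1, 0 in F0 and 0 in the interaction, and Krt18 had a log2 fold change of −4.84; the numbers do not pair the mice, as the same numbers did not deviate together. Counts under 10 reads per mouse limit Krt5, Krt14, Krt15 and Cldn4 in every group, and 2 mice per diet limit all F0 values.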

Other observations

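Hair keratins, a list of 24 chosen after values of some members were seen, of which 23 were in the files, had 15 and 21 reads in CD-fed and 150 and 59 in LPD-fed F0 males. In F1 they had 22 to 57 reads in the sons of CD fathers, against 5 to 11 in pLPD offspring. Most of the reads outside LPD-fed males were on Krt36, with 4 to 22 reads in every mouse, while Krt31, Krt34 and Krt86 had reads only in LPD-fed males (7 and 0, 9 and 1, and 6 and 1). LPD-fed F0 males were thus highest in hair keratins and not in Krt8, Krt18 or Krt19.

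Krt17, a keratin of hair follicles and of stressed epidermis, went against the simple keratins in F1, with 2, 1 and 5 reads in the sons of CD fathers and 5, 9 and 3 in pLPD offspring, overlapping groups. Trp63, the transcription factor of basal epithelia, had 32, 26 and 31 reads against 16, 22 and 22, and 51 and 83 on CD against 49 and 48 on LPD in F0. It was counted in every mouse, also where Krt5 and Krt14 had no read. Cldn3 and Cldn7, claudins of simple epithelia, had 3, 5 and 9 against 1, 2 and 1 reads and 2, 2 and 4 against none in F1. These genes were named after their values were seen.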
